A study of Mus musculus with 4 samples.

Results

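Ubiquitin-specific proteases (USPs) were examined in RNA immunoprecipitation (RIP) peaks of mouse liver. They were taken as every gene that either peak list names Usp followed by a digit, with all of its peaks. This gave 40 of the 8889 genes with a peak, 38 of 7462 in the AAV-GFP list and 40 of 8508 in the AAV-NAT10 list. One of the 40, Usp6nl, shares the name but encodes a GTPase-activating protein for Rab proteins and no protease. The lists' own annotation gives ubiquitin-specific protease activity to 31 of the 40 genes, and to neither Usp6nl nor Usp9x, Usp18, Usp24, Usp32, Usp39, Usp40, Usp53 or Usp54.

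The livers came from male C57BL/6 mice that had received an adeno-associated virus (AAV) carrying GFP, the control, or NAT10, the enzyme that acetylates cytidines of RNA to N4-acetylcytidine (ac4C). Both groups thus carried an AAV, and the sources used here do not give the age of the mice, the promoter in the vectors or the number of animals behind a library. Each virus had 1 immunoprecipitated (IP) library and 1 input library, so no difference between the viruses has a replicate check and no test was made. The labels name both a protein antibody and an ac4C library type, so the antibody's target is unsettled, and their extraction text speaks of db/db and lean mice, which the titles do not.

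USPs cut ubiquitin from proteins or from ubiquitin chains and so oppose the ubiquitin ligases. Most are cysteine proteases that share a catalytic fold and differ in the domains that choose the substrate. In liver they are known for acting on p53 and its ligase, on histones, on endosomal receptors and on enzymes of lipid synthesis.

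The lists differed in size and say little of the tissue. The AAV-GFP list held 33968 peaks and the AAV-NAT10 list 41511, from libraries of unknown depth. Nat10 itself had 9 peaks in AAV-GFP, with a median fold at percentile 24.7 of that list and none at the score ceiling explained further on, and 10 in AAV-NAT10, at percentile 96.4 and with 9 at the ceiling. Of the hepatocyte markers, Cebpa held a peak in both lists and Apob and Cps1 in AAV-NAT10 alone. The secreted-protein markers Alb, Ttr and Trf had no listed peak, and a gene with none may still have been bound or expressed.

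Some pieces began exactly at an annotated transcript start, and the letters there are shown because the reference tables hold the bases of USP transcripts under these peaks. All 5 starts shown lie inside the annotated borders of the gene. Those of Usp2 and Usp34 are alternative ones 17899 and 3710 bases in, and those of Usp15 and Usp24 lie 262 and 233 bases in. A start here is any of the RefSeq starts of a gene, and a piece counted where it reached into the first 50 bases after it. The 30 bases from the start are given 5′ to 3′ on the gene's strand (RefSeq, GRCm38.p6, the assembly of mm10), in lower case, with capitals for each C of a motif of 4 CNN triplets in a row, where N is any base. Repeats of CNN are known from ac4C sites mapped in human cells.
Usp15 (AAV-GFP peak, chr10:123196990-123197019, minus strand): ggtacagacctgccggcggggcggggccgg
Usp34 (AAV-GFP peak, chr11:23306895-23306924, plus strand): gcCtcCgtCcCCtCCcCCcCgcCggtcggg
Usp47 (AAV-NAT10 peak, chr7:112023506-112023535, plus strand): ggCagCagCggCgaCggCggCggCgcCctg
Usp24 (AAV-NAT10 peak, chr4:106316213-106316242, plus strand): gaagaggaggagcaggccaacatggcggcg
Usp2 (AAV-NAT10 peak, chr9:44084920-44084949, plus strand): gtcgcaaagctggaagctcggcgggtcagc

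The motif was found in the 30 bases of Usp34 and Usp47 and in none of the other 3, against 12.0% of all 32851 starts in the table. Overlapping matches were counted, 5 in Usp34 and 6 in Usp47. In the first 50 bases of all starts the motif lay on the gene's strand in 21.1% and on the other strand in 29.0%. Of the 5 starts shown, Usp34 and Usp47 held it there on the gene's strand, and Usp15, Usp24 and Usp47 on the other strand. The starts of Usp32 and Usp48, whose pieces began further in, held it on both strands, and that of Usp36 on neither. All 5 stretches were richer in G and C than the median start, 66.7% to 86.7% against 56.7%.

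Start pieces were rarer than over all genes in AAV-GFP and near the share of all genes in AAV-NAT10. The promoter table holds 29 members of the AAV-GFP list, of which 2 had one (Usp15 and Usp34). It holds 30 of the AAV-NAT10 list, of which 6 had one (Usp2, Usp24, Usp32, Usp36, Usp47 and Usp48). Of all genes with an entry there, 17.1% of those in the AAV-GFP list had one and 22.5% of those in the AAV-NAT10 list. No member had one in both lists. Over the 6678 genes of either list in that table, 10.9% had one in both, 3.46% in AAV-GFP alone and 10.7% in AAV-NAT10 alone. The members' start pieces had scores from 56.7 (Usp15) to 201.87 (Usp47). The score is the p-value's log10 times -10, and the lowest in either list is 50. All USP peaks had a median score of 313.99 in AAV-GFP and 483.63 in AAV-NAT10. Scores of the start pieces of all genes are not given here. Only the Usp24 piece overlapped a peak of the other list.

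A listed peak was more frequent among USP genes than among genes at large. RefSeq names 56 protein-coding genes by the same pattern, and 40 (71.4%, exact 95% interval 57.8 to 82.7) had a peak in at least 1 list. Of all 21900 RefSeq protein-coding genes, 37.6% did. The USP genes with a peak had a median genomic length of 54733 bases and those without one of 19521, against 28351 and 10725 for all protein-coding genes. Genomic length thus moved with having a peak, and its part in the result was not tested. In whole liver, fewer cells that express a gene and less RNA of it per cell cannot be told apart.

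The 16 without a listed peak included all 5 Usp17-like genes, relatives of cytokine-induced genes of blood cells, and Usp26, known from testis. Usp27x and Usp51, relatives of Usp22, had none either. The others were Usp11, Usp13, Usp29, Usp35, Usp43, Usp44, Usp50 and Usp9y.

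Close relatives in several cases differed in whether they were listed at all. Usp5 was listed and its relative Usp13 was not. Usp4 and Usp15 were listed and Usp11 was not, and Usp49 was listed and Usp44 was not. Both members of the pairs Usp12 and Usp46, Usp25 and Usp28, Usp53 and Usp54, and Usp20 and Usp33 were listed, but Usp20 only in AAV-NAT10.

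Both lists held a peak of 38 of the 40 genes, and the other 2 genes were in the AAV-NAT10 list alone. Over all genes of the lists 79.7% were in both, 16.1% were AAV-NAT10 genes alone and 4.29% AAV-GFP genes alone. The 2 single-list genes were weak in the list that had them. Usp20, a deubiquitinase of the ER that stabilises HMG-CoA reductase, the target of statins, held 2 AAV-NAT10 peaks covering 1218 bases. Its longer piece (chr2:31021652-31022688) had fold 3.49 and score 110.43, and the shorter one 3.81 and 61.97. Usp5, which recycles free ubiquitin chains, held 2 pieces covering 264 bases with folds of 2.76 and 3.71 and scores of at most 70.77.

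The number of peaks per gene spanned from 1 to 46. In AAV-GFP the USP genes held 375 peaks, 1.10% of the list, with a median of 6 per gene against 2 over all genes. In AAV-NAT10 they held 437, 1.05% of the list, with a median of 7 against 3. The very large proteases took the most. Usp34, which acts on axin in Wnt signalling, held 46 peaks in each list and by number of peaks ranked 16 of 7462 AAV-GFP genes and 18 of 8508 AAV-NAT10 genes. Usp24 held 34 and 45 peaks, Usp9x, which acts on SMAD4 and on endocytic adaptors, 30 and 33, and Usp32, an enzyme of late endosomes, 26 and 27. These 4 genes made up 36.3% of the AAV-GFP and 34.6% of the AAV-NAT10 USP peaks.

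USP genes with 1 or 2 peaks numbered 10 in the AAV-GFP list and 7 in the other. So few peaks are common in the lists, where the median over all genes was 2 and 3. Usp1, which deubiquitinates FANCD2 and PCNA, held a single piece of 1474 bases with the same borders in both lists (chr4:98934070-98935543), with folds of 8.50 and 11.6. Usp19, which is anchored in the ER membrane, held 2 pieces with the same borders in both lists, 809 bases in each.

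USP pieces were shorter than most. Their median length was 150 bases (interquartile range 112.5 to 225) in the AAV-GFP list and 148 (110 to 223) in the other, against 184 and 179 over all peaks. The median fold, the authors' enrichment of a peak over background, was 7.36 against 6.33 over all peaks of AAV-GFP and 7.70 against 6.51 over all of AAV-NAT10. Of the 38 shared genes 23 (60.5%) had at least 5 peaks in both lists, against 30.5% of all shared genes. Pieces of at least 1000 bases, 35 from AAV-GFP and 33 from AAV-NAT10, held 55.1% and 51.2% of the covered bases, against 67.0% and 63.9% over all genes.

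**Figure D1:**
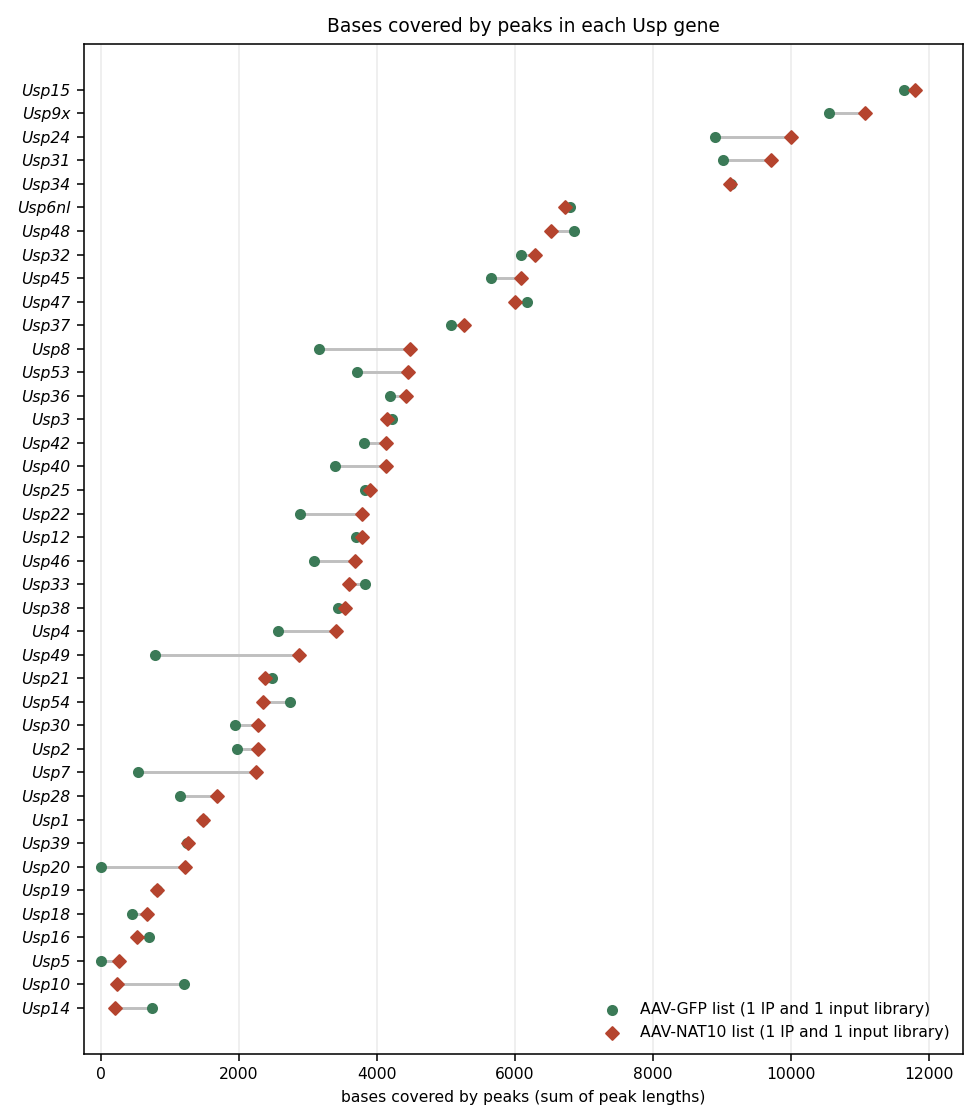
Bases covered by peaks (horizontal axis, sum of peak lengths) in each of the 40 Usp genes, ordered by the AAV-NAT10 value. Circles are the AAV-GFP list and diamonds the AAV-NAT10 list, each from 1 IP and 1 input library, and a grey line joins the values of a gene. Usp15 reached 11640 and 11796 bases, and the widest gap was that of Usp49.

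Pieces at the 3′ ends of genes were long. The strand is known here for 30 members, and an end piece is one that ends within 1000 bases of the gene's 3′ end. Such a piece was found in 21 of 29 members (72.4%) in AAV-GFP and 21 of 30 (70.0%) in AAV-NAT10, against 68.9% and 70.6% of all genes. End pieces had a median length of 1764 and 1854 bases, and the other pieces 141 and 139. Over all genes with a known strand the end pieces had 1674 and 1550.5 and the others 164 and 161. End pieces held 37.5% and 39.0% of these members' covered bases, against 51.6% and 50.9% over all genes with a known strand. The longest were in Usp15 (chr10:123105006-123113687), an 8682-base piece in AAV-NAT10 that the AAV-GFP list gives as 2 pieces of 3055 and 4660 bases, and in Usp31, 7696 and 7699 bases.

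Having an end piece was not always shared. It was found in both lists for 19 members, in neither for 7, in AAV-GFP alone for Usp10 and Usp54 and in AAV-NAT10 alone for Usp7 and Usp20. Over all 6676 genes with a known strand 53.8% had one in both, 27.8% in neither, 4.37% in AAV-GFP alone and 14.0% in AAV-NAT10 alone. The strongest of these 4 was in Usp7, the protease known for stabilising MDM2 and p53. Its AAV-NAT10 piece (chr16:8689437-8690886, 1450 bases, 715 bases from the gene's end) was at the score ceiling with a fold of 9.35. No AAV-GFP peak overlapped it.

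The ceiling is a score of 3100 or slightly above, at which the smallest p-values are held, so scores there have no order. In AAV-GFP 11 USP peaks were at the ceiling (2.93%, interval 1.47 to 5.19), each in a different gene, against 4.56% of all peaks. In AAV-NAT10 29 were (6.64%, 4.49 to 9.39), in 19 genes, against 6.96% of all peaks. Usp9x held 5 of these 29 and Usp24 and Usp34 held 4 each. Peaks of a gene are not independent, so the intervals are too narrow. At the level of genes, 11 of 38 AAV-GFP members and 19 of 40 AAV-NAT10 members had a ceiling peak, against 18.3% and 25.7% of all genes. Members also had more peaks each, a median of 6 and 7 against 2 and 3, and the part of this in the contrast was not tested. A ceiling peak was found in both lists for 10 members, in AAV-NAT10 alone for 9 and in AAV-GFP alone for 1, Usp19. The shares of all genes were 14.1%, 10.5% and 1.25%.

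The 10 genes with ceiling peaks in both lists were Usp2, Usp22, Usp24, Usp32, Usp36, Usp45, Usp47, Usp53, Usp6nl and Usp9x. The 9 with one only in AAV-NAT10 were Usp3, Usp7, Usp12, Usp15, Usp25, Usp31, Usp34, Usp37 and Usp42. Ceiling pieces were long, with a median of 2142 bases for AAV-GFP and 1450 for AAV-NAT10, but shorter than the 3002 and 2229 over all ceiling peaks. Of the AAV-NAT10 ceiling pieces 12 were under 1000 bases, one of 995 bases in Usp53 and the other 11 in Usp24 (229, 221 and 111 bases), Usp34 (150, 147, 169 and 635 bases) and Usp9x (223, 226, 221 and 261 bases). All 12 had the same borders in the AAV-GFP list, where the Usp53 piece was at the ceiling too and the other 11 scored below it.

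The highest folds belonged mostly to the same genes in both lists. In AAV-GFP they were those of Usp24 (20.7), Usp40 (18.9), Usp53 (17.8), Usp34 (17.2), Usp6nl (17.1) and Usp32 (15.2). In AAV-NAT10 they were those of Usp32 (21.4), Usp53 (20.7), Usp34 (19.9), Usp40 (19.0), Usp36 (18.3) and Usp24 (18.1). The piece of Usp53 (chr3:122933601-122934595, 995 bases), a junction protein long classed as an inactive USP and linked to cholestasis in people, was at the ceiling in both lists. Its fold stood at percentile 99.3 of the AAV-GFP list and 99.5 of the AAV-NAT10 list. The lowest USP folds were 3.12 (Usp49) in AAV-GFP and 2.70 (Usp39) in AAV-NAT10.

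**Figure D2:**
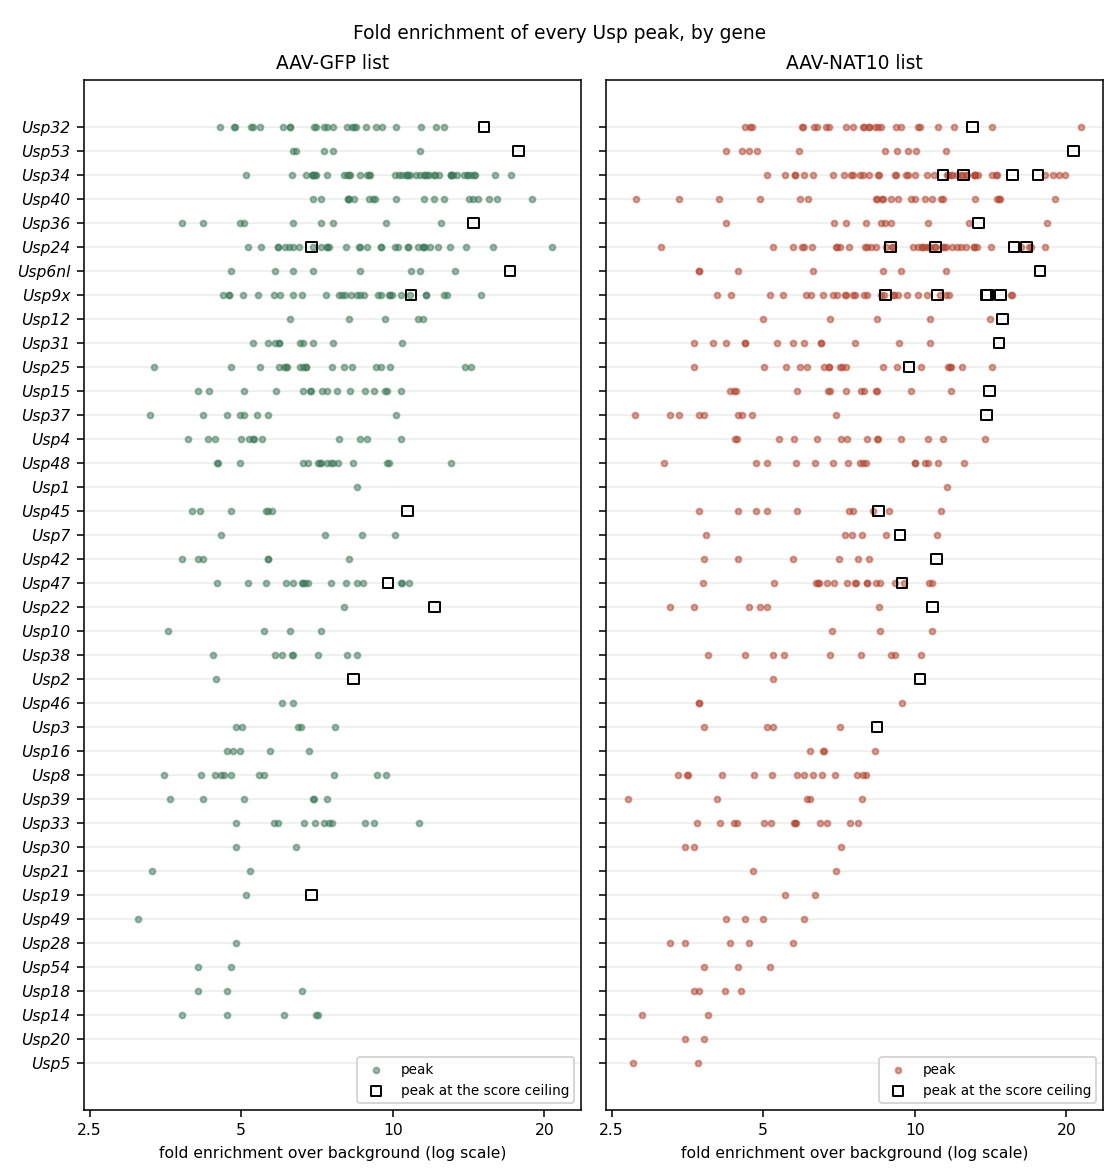
Fold enrichment of every Usp peak over background (horizontal axis, log scale), by gene, in the AAV-GFP list (left, 375 peaks) and the AAV-NAT10 list (right, 437 peaks). Each point is a peak and open squares are peaks at the score ceiling, 11 on the left and 29 on the right; folds are the peak caller's values within a list and are not compared between the panels.

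Most USP peaks occupied the same place in both lists. Of the AAV-GFP peaks 341 (90.9%, 87.6 to 93.6) overlapped an AAV-NAT10 peak by at least 1 base, and 34 did not, against 12.6% of all AAV-GFP peaks without a counterpart. In AAV-NAT10 the overlapped peaks numbered 340 (77.8%, 73.6 to 81.6), and 97 had no counterpart, against 28.5% of all. Peaks of a gene are not independent, so these intervals are too narrow. Identical borders were found for 312 pieces, 83.2% of the AAV-GFP and 71.4% of the AAV-NAT10 USP peaks, against 73.6% and 60.2% of all peaks. Some of these borders fell exactly on an annotated border of the gene, as in Usp1, Usp12 and Usp36. How far the borders, lengths and numbers of pieces follow annotated exons was not tested, so identical borders need not mean identical binding sites. The lists give no strand, and some pieces of Usp2, Usp6nl, Usp15, Usp18, Usp22, Usp37, Usp47, Usp49 and Usp54 also lie in another annotated gene, so the source of their signal cannot be told apart.

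Peaks without a counterpart scored lower. Their median score was 129.76 against 366.41 for the overlapped ones in AAV-GFP, and 127.35 against 604.135 in AAV-NAT10. Over all peaks these medians were 107.29 against 279.41 in AAV-GFP and 126.12 against 450.055 in AAV-NAT10. All 34 of AAV-GFP and 93 of the 97 of AAV-NAT10 lay in genes that had a peak in the other list, the other 4 being those of Usp5 and Usp20. A score of at least 500 was reached by 2 of the 34 and by 17 of the 97. This is 5.88% in AAV-GFP, against 10.3% of all its peaks without a counterpart, and 17.5% in AAV-NAT10, against 12.0%.

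The 17 came from 9 genes, and Usp24, Usp7 and Usp9x held 11 of them. Usp24 had 11 AAV-NAT10 pieces without a counterpart, among them an internal piece of 94 bases (chr4:106380428-106380521) at fold 9.07 and score 2311.38. Usp9x had 4, the best of them at chrX:13145127-13145347 at fold 11.7 and score 2436.64. In AAV-GFP the best were in Usp33, a regulator of Robo and beta-adrenergic receptors (chr3:152381715-152381884, fold 11.3, score 779.59), and in Usp9x (fold 10.8, score 640.26).

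**Figure D3:**
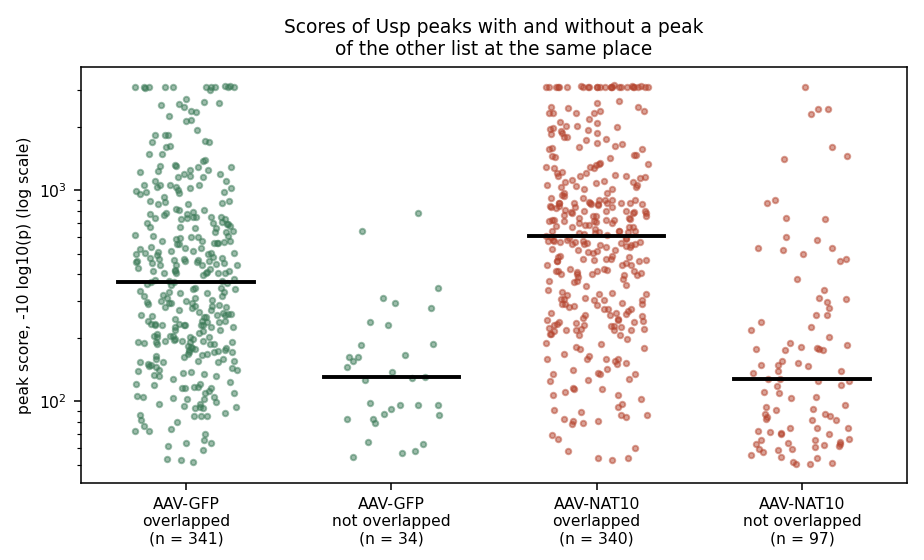
Scores of Usp peaks (vertical axis, -10 times log10 of the p-value, log scale) in 4 columns, the AAV-GFP and AAV-NAT10 peaks with and without an overlapping peak in the other list. Points are peaks, spread sideways at random, and black lines are medians, 366.41 and 129.76 in AAV-GFP and 604.135 and 127.35 in AAV-NAT10.

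The covered length was then set side by side for the 38 shared genes, and where a pair of lengths is given from here on, the AAV-GFP value comes first. More bases were covered in AAV-NAT10 for 25, in AAV-GFP for 11, and equally many for 2 (Usp1 and Usp19). Over all 7081 shared genes these shares were 58.8%, 27.0% and 14.2%, where the USP genes had 65.8%, 28.9% and 5.26%. The median difference was 201.5 bases toward AAV-NAT10 (interquartile range -53.75 to 583), against 93 (-18 to 419) over all shared genes. More peaks were listed in AAV-NAT10 for 25 of the 38 and in AAV-GFP for 6, against 46.4% and 14.4% of all shared genes. The direction of the covered length turned when as many peaks were taken from either list. Then 15 USP genes had the greater length in AAV-NAT10 and 20 in AAV-GFP, with a median of -9 bases, where all genes stood at 44.4%, 39.5% and 0.

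Histone and transcription enzymes included the widest gaps. Of the 8 listed, 5 had the greater covered length in AAV-NAT10 and 3 in AAV-GFP, against 58.8% and 27.0% of all shared genes. Usp49, a deubiquitinase of histone H2B, held a single AAV-GFP peak of 784 bases, at fold 3.12 and score 72.43. In AAV-NAT10 it held 4 peaks covering 2875 bases, with folds of 4.21 to 6.04 and scores up to 223.76. The AAV-GFP piece stood at percentile 1.20 of that list's folds, and with a score of at least 100 asked of every peak the gene was found only in AAV-NAT10.

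Usp7 had 537 bases under 4 AAV-GFP peaks and 2250 under 7 AAV-NAT10 peaks. The 4 AAV-GFP pieces, with folds of 4.56 to 10.1, all had the same borders in AAV-NAT10. The 3 further pieces had folds of 7.27 to 9.35 and scores of 601 or more, and 2 of them lay nearer the 3′ end than any AAV-GFP piece. This difference of 1713 bases was 1603 with equal numbers of peaks.

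Usp22, the catalytic subunit of the SAGA deubiquitinating module, held 2 AAV-GFP and 7 AAV-NAT10 peaks, covering 2883 and 3785 bases. A piece of 2733 bases (chr11:61151781-61154513), at the ceiling in both lists, made up most of the length, with folds of 12.1 (AAV-GFP) and 10.8 (AAV-NAT10). The 5 pieces found only in AAV-NAT10 had scores of 54.52 to 138.92, and the difference of 902 bases was 148 with either a score of at least 100 or equal numbers of peaks, and 102 with a fold of at least 5. Usp3 and Usp21, both H2A deubiquitinases, had 4212 and 4146 bases and 2477 and 2381. Usp36, the nucleolar protease that acts on MYC, had 4195 and 4418, and Usp42 had 3814 and 4133. Usp16, another H2A deubiquitinase, had 689 AAV-GFP bases and 515 AAV-NAT10 bases, the difference being a single 174-base piece with a score of 58.07. Without pieces scoring under 100 the difference turned to 176 bases toward AAV-NAT10.

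Among 7 genes of DNA repair and the cell cycle the length was greater in AAV-NAT10 for 3, greater in AAV-GFP for 3 and equal for 1. The shares of all shared genes were 58.8%, 27.0% and 14.2%. Usp10, which acts on p53 and forms a complex with the stress granule protein G3BP1, had the largest gap toward AAV-GFP, with 1205 bases against 227. Its 3 internal pieces of 58 to 100 bases had the same borders in both lists. The gap was the 978-base end piece (chr8:119956583-119957560) of AAV-GFP, at fold 3.58 and score 129.05. It fell out when a fold of at least 5 was asked of each peak.

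Usp28, a protease that stabilises MYC, held 1 end piece of 1144 bases in AAV-GFP and 5 pieces covering 1688 bases in AAV-NAT10. Its end pieces overlapped, with folds of 4.88 and 5.72, and the 4 further pieces had scores of 53.89 to 74.44. Usp48 was covered over 6863 and 6527 bases with 16 peaks in each list. Usp47, which acts on DNA polymerase beta, had 6169 and 6004, Usp45, which acts on the repair protein ERCC1, 5647 and 6086, and Usp37, a cell cycle protease, 5069 and 5269.

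Among the enzymes of endosomes and the ER, the direction for Usp8 depended on weak pieces. Usp8, which removes ubiquitin from receptors at endosomes and binds the ESCRT protein STAM, had 3157 bases under 11 AAV-GFP peaks and 4484 under 14 AAV-NAT10 peaks. The largest further piece of AAV-NAT10 (922 bases, chr2:126732061-126732982) had a score of 62.37. With a score of at least 100 the difference of 1327 bases turned to -578, and with equal numbers of peaks to -664, while with a fold of at least 5 it was 1352. Usp33 was covered over 3834 and 3592 bases, and its difference of -242 was -367 with a score of at least 100, -442 with a fold of at least 5 and -531 with equal numbers of peaks. Usp25, which trims substrates of ER-associated degradation, was covered over 3822 and 3900 bases and Usp32 over 6088 and 6291.

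Of the 4 listed genes grouped by TGF-beta and Wnt signalling, 3 had the greater covered length in AAV-NAT10, against 58.8% of all shared genes. Usp4, which acts on TGF-beta receptors, had 2570 bases under 12 AAV-GFP peaks and 3406 under 14 AAV-NAT10 peaks. All 12 AAV-GFP pieces had the same borders in AAV-NAT10. The 2 further pieces (695 and 141 bases) had folds of 8.44 and 7.13 and scores of 460.14 and 895.80. The difference of 836 bases was 860 with a score of at least 100, 732 with equal numbers of peaks and 1626 with a fold of at least 5. At that fold the 851-base end piece, with the same borders in both lists, fell out of AAV-GFP (fold 3.92) but not of AAV-NAT10 (5.38). Usp9x was covered over 10552 and 11074 bases, Usp15 over 11640 and 11796 and Usp34 over 9135 and 9118. Of Usp34's 46 pieces in each list, 1 in each had no counterpart.

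**Figure D4:**
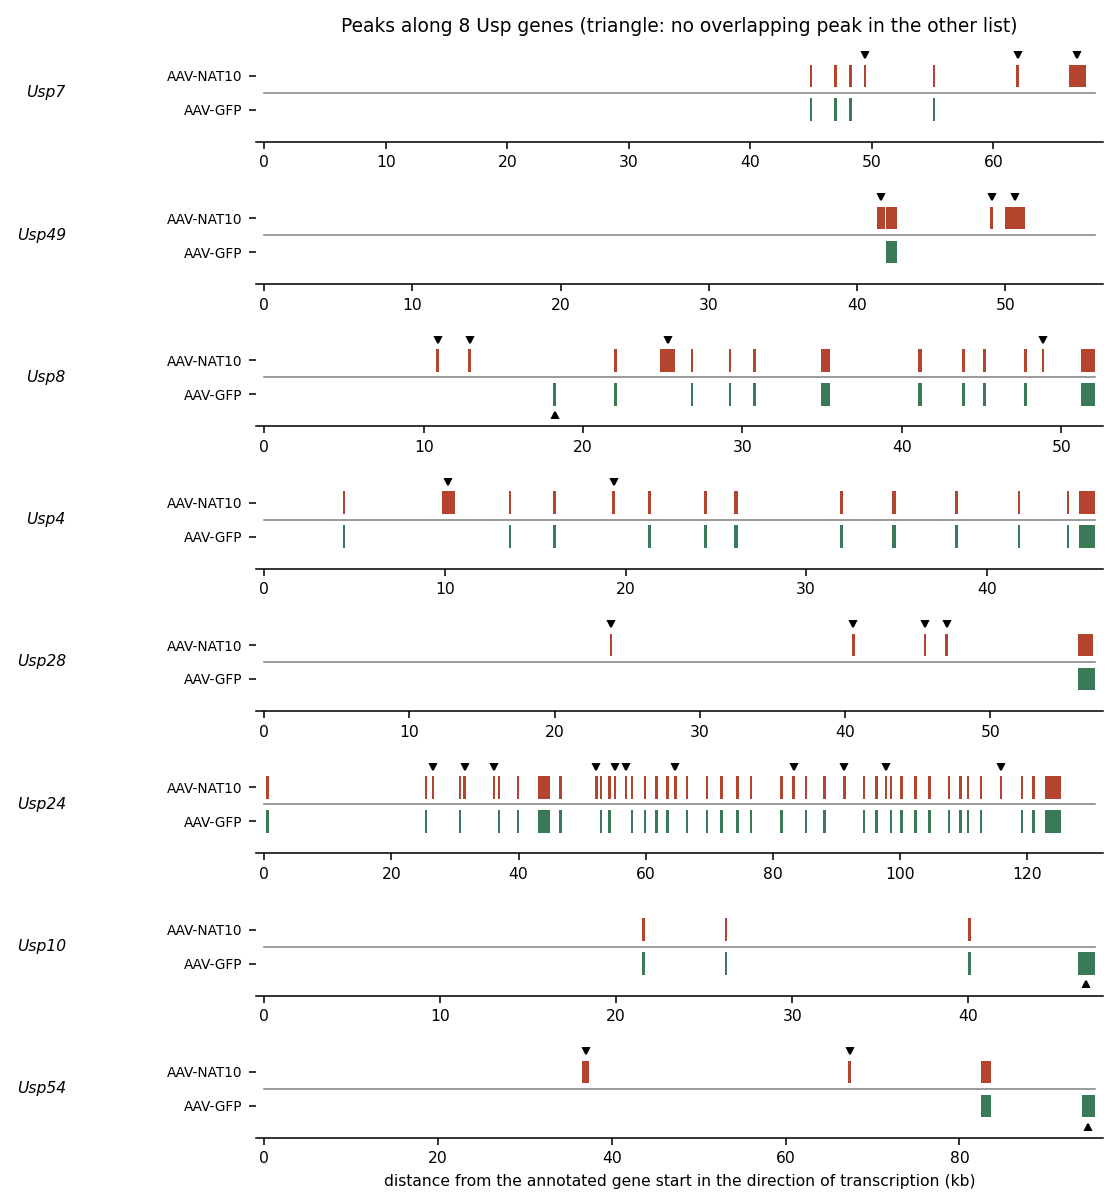
Peaks along 8 Usp genes, drawn by distance from the annotated gene start in the direction of transcription (horizontal axes, kb, a scale for each gene). Upper boxes are AAV-NAT10 peaks and lower boxes AAV-GFP peaks, drawn at least 0.3% of the gene wide; triangles mark peaks with no overlapping peak in the other list, 11 of them in Usp24, 4 in Usp28 and 3 each in Usp7 and Usp49 for AAV-NAT10.

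Usp14, which recycles ubiquitin and sits on the proteasome, held 5 peaks covering 745 bases in AAV-GFP, with folds of 3.82 to 7.12, and 2 covering 208 bases in AAV-NAT10, with folds of 2.87 and 3.89. Both AAV-NAT10 pieces had the same borders in AAV-GFP. No Usp14 score exceeded 295.11 in either list, and with a fold of at least 5 the gene was found only in AAV-GFP.

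Peaks of Usp54 spanned 2742 bases (AAV-GFP) and 2348 bases (AAV-NAT10). Its end piece of 1520 bases was found only in AAV-GFP, at fold 4.10 and score 130.47, and 2 internal pieces only in AAV-NAT10, with folds of 3.81 and 4.45. With a fold of at least 5 Usp54 was found only in AAV-NAT10. Its relative Usp53 had 3714 bases under 6 AAV-GFP peaks and 4450 under 11 AAV-NAT10 peaks. Every AAV-GFP piece of Usp53 had a counterpart, and 5 AAV-NAT10 pieces had none. Usp39, a spliceosome protein without protease activity, was covered over 1242 and 1268 bases.

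Usp24 held 34 peaks covering 8907 bases in AAV-GFP, all of them with a counterpart, and 45 covering 10006 in AAV-NAT10. Its difference of 1099 bases was 525 with a score of at least 100 or a fold of at least 5, and 459 with equal numbers of peaks. Usp40 was covered over 3396 and 4130 bases and Usp31 over 9013 and 9715. Usp12 and Usp46, whose activity depends on the WD repeat protein WDR48, were covered over 3698 and 3779 bases and 3087 and 3683.

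In the remaining groups, Usp2, a rhythmically expressed protease, was covered over 1978 and 2270 bases, the larger part in an end piece of 1854 bases (chr9:44093774-44095627) that was at the ceiling in both lists. Usp18, which removes the ubiquitin-like protein ISG15 and restrains interferon signalling, had only 446 and 666 bases, and no score above 274.56. Usp38 had 3439 and 3533 bases. Usp30, the protease of the mitochondrial outer membrane that opposes parkin, had 1947 and 2280. Usp6nl had 6797 and 6728 bases and a 6030-base piece at the ceiling in both lists.

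Genes grouped with other deubiquitinase families, not all of them active proteases, were read for comparison, from a list of 44 genes. Of these 34 (77.3%, 62.2 to 88.5) held a peak, against 37.6% of all protein-coding genes. Both lists held 28 of them, and 6 were in AAV-NAT10 alone. Among the 28, the length was greater in AAV-NAT10 for 17 and in AAV-GFP for 8, with a median of 54.5 bases, where all shared genes stood at 58.8%, 27.0% and 93 bases. In the OTU family 13 of 16 genes had a peak, with Vcpip1 at 8543 and 8606 bases, Otud7b at 6922 and 7268 and Otud4 at 6345 and 6095. Of 12 genes grouped with the JAMM family of metalloproteases 8 had one, with Mysm1, an H2A deubiquitinase, at 6793 and 6857 bases. Cyld, which has the USP fold under another name, had 7552 and 8150.

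Of 24 partners of USP proteins 22 (91.7%) were listed, against 37.6% of all protein-coding genes. All 22 were in both lists, as were 79.7% of all listed genes. More bases were covered in AAV-NAT10 for 12 of them and in AAV-GFP for 5, with a median of 84 bases, against 58.8%, 27.0% and 93 bases for all shared genes. Atxn7l1, a relative of the SAGA subunit Atxn7, had 7685 and 7609 bases, Mdm4, a p53 inhibitor, 7074 in each list, and Gmps, a metabolic enzyme that binds Usp7, 6326 and 6832. Of the activating enzymes of ubiquitin and its relatives, Uba6 had 2069 bases in each list, Uba7 984 and 1602, and Uba1 367 in AAV-NAT10 alone.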

How the data were processed

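For each virus the authors deposited 1 list of RIP peaks, from 1 IP and 1 input library. MACS appears in the peak names, and the submitters' processing notes name mm10. Aligner, MACS version and filters were not given in the sources used here. Per the file headers, the peak score is -10 times log10 of a p-value. Fold enrichment is a linear ratio, as deposited by the authors; folds and scores describe peaks within a list only. Starts were converted to count from 1. The lists give no strand, and 9 AAV-GFP and 12 AAV-NAT10 Usp peaks also touch another RefSeq gene; 1 and 3 reach past their gene.

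All 40 names matched RefSeq genes (GRCm38.p6). Overlap needed 1 base; the search was tested on simulated peaks. Exact (Clopper-Pearson) 95% intervals cover counting error only. Python 3.11.15, pandas 2.3.3 and scipy 1.17.1 were used. Full values were given for members in 1 list with at least 1000 bases, the 6 largest differences each way, the 6 highest folds per list and ceiling peaks. Members and lists were chosen with earlier results of these data known, and the start, end and score readings after seeing the values. Alternatives were a score of at least 100, a fold of at least 5, equal numbers of top peaks, at least 2 peaks per gene, overlap of 0.5 of both peaks and, added later, leaving out Usp6nl. Some genes of the marker and comparison lists are not reported here.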

Additional observations from a re-analysis of the deposited data

How the results depend on the processing

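Cutting the AAV-NAT10 list to its 33968 best-scoring peaks, as many as AAV-GFP has, moved the most values. The overlapped share of USP peaks became 85.6% in AAV-GFP and 84.88% in AAV-NAT10, 1 gene (Usp20) was found only in AAV-NAT10, the covered length was greater in AAV-NAT10 for 15 genes and in AAV-GFP for 20, and the median difference turned from 201.5 to -9 bases. With a fold of at least 5, 2 genes (Usp14 and Usp18) were found only in AAV-GFP and 7 were covered over more bases there. At that fold 3 genes (Usp28, Usp49 and Usp54) were found only in AAV-NAT10, and Usp5 and Usp20 had no peak left. This count stayed close to the 2 found without a cut, but its genes were others. With at least 2 peaks per gene, 4 were found only in AAV-NAT10. The other 30 of the 39 values recomputed for the family stayed close to those given. Among them were all that left out Usp6nl, an alternative added after the data were seen. Shares over all genes or peaks under these alternatives are given only for covered length with equal numbers of peaks. Whether the family otherwise moved more or less than all genes thus cannot be told. Of single genes, Usp16 turned to 176 bases (score of at least 100) and 307 (fold of at least 5) toward AAV-NAT10, and Usp8 to -578 (score of at least 100) and -664 (equal numbers). No paired analysis was possible because each virus has a single IP and a single input library, with no replicate numbers. The causes were not tested. Depth is unknown, so a missing peak is no sign of missing binding.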
